A study of Mus musculus with 9 samples.

Results

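The AP-1 transcription factors were followed here as 8 genes: the Fos family (Fos, Fosb, Fosl1 and Fosl2), the Jun family (Jun, Junb and Jund) and Atf3. They were taken by symbol from the 16698 genes of the expression table, and all 8 were found. RNA came from the left ventricle of 14-day-old mice of the outbred ICR/CD1 strain, in 3 groups of 3 libraries. Transverse aortic constriction (TAC) is a surgical narrowing of the aortic arch that loads the left ventricle with pressure. Pups were operated on postnatal day 1 (day-1 TAC) or 7 (day-7 TAC), or had sham surgery, whose day the labels used here do not give. The growth protocol describes all hearts as 14 days old. The sample names put 14 before the day of surgery for day-1 TAC and 7 for day-7 TAC; if these are days since surgery, the day-1 TAC hearts would be slightly older than the protocol says. Age at surgery and time under load differ together between the TAC groups and cannot be told apart. The labels do not say if each library is an animal of its own, and p-values therefore cover only the spread among libraries, which may be technical.

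AP-1 is a dimer that binds DNA through a basic region and a leucine zipper. Fos proteins need a Jun partner, whereas Jun proteins also pair with each other, and Atf3 joins Jun proteins or pairs with itself. Several of these genes are immediate-early genes, whose transcription starts within minutes of a stimulus through MAP kinases acting on serum response factor and CREB, without new protein synthesis. In heart muscle they are known for brief induction by stretch and pressure load.

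The promoter windows of Fos, Junb and Atf3 are shown because these 3 genes differed between the TAC groups. Each window runs from 250 bases before to 50 bases after the RefSeq start site (GRCm38.p6), 5′ to 3′ on the gene's strand. Capitals mark TGACGT, the core of the CREB and ATF site, on either strand, and TATAAA, the letters of a TATA box wherever they fall; both motifs were chosen after the sequences were seen.
Fos, chr12:85473640-85473939, plus strand: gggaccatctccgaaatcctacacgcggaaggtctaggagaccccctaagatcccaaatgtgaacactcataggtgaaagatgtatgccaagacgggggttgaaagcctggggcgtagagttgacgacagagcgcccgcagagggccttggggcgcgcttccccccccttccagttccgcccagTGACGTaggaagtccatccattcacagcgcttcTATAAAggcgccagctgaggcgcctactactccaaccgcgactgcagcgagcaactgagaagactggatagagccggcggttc
Junb, chr8:84978699-84978998, minus strand: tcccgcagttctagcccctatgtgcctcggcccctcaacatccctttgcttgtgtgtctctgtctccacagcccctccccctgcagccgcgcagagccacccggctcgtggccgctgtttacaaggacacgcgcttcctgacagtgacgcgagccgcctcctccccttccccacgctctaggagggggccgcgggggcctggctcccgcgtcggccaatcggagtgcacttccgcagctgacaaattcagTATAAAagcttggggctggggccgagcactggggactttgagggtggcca
Atf3, chr1:191183284-191183583, minus strand: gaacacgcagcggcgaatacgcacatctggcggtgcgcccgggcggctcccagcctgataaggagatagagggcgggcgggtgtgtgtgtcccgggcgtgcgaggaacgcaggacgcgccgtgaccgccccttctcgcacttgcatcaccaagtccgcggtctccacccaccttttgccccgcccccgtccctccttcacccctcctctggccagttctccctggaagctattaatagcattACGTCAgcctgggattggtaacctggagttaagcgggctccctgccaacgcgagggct
Fos held TGACGT at bases 185 to 190 and TATAAA at bases 218 to 223 of its window. Junb held TATAAA at bases 251 to 256, from the RefSeq start site onward, which is 30 bases upstream of the GENCODE start. Atf3 held TGACGT on the other strand at bases 243 to 248. Of all 32851 RefSeq windows, 7.51% held TGACGT and 13.6% held TATAAA. A window was found for 7 of the 8 genes. In these 7, none held TGAGTCA (the classic AP-1 site, either strand), TGACGTCA (the full CREB and ATF site, its own reverse complement, which holds TGACGT) or a CArG box, the site of serum response factor, in these letters. Sites more than 250 bases upstream of the start site lie outside the windows and were not searched, so these promoters may hold such sites there. The RefSeq start site of Atf3 lies 34706 bases inside the gene's outermost GENCODE start and 7 bases from the start of another GENCODE transcript, so the window shown is that of the inner start. For Jund the RefSeq site lies 1210 bases upstream of the GENCODE start, and for Fosl2 671 bases inside the outermost start.

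Recovered depth was 18538900 to 26529531 reads per library. Across genes, the lowest correlations within a group were those of day-1 TAC replicate 1 (r of 0.981 and 0.977). Day-1 TAC replicate 3 had 10532 reads of Xist against at most 40 elsewhere and 18 reads of the Y-linked Ddx3y against at least 3312. These reads mark that library as female and the others as male, so sex differed within the day-1 TAC group. The part of sex in the AP-1 values was not tested beyond leaving out that library. Results below that change without 1 library are given with it. All 10 cardiomyocyte markers were tested, and Myh6, the adult myosin heavy chain, had at least 657975 reads in every library. The atrial marker Bmp10 had 1 to 16 reads, but other atrial markers had more, such as Myl4 (1122 to 5055), Myl7 (492 to 2271) and Sln (55 to 435). Since no library lists a gene below 1 read, no marker can be shown as absent.

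Values are the deposited log2 values, and a gene was tested where it lay above 0 in at least 3 libraries. Of the 8 genes 7 passed this filter. Fosb passed it through the TAC libraries alone, so its call was favoured by the filter. By limma, with adjusted p under 0.05, 5 of the 8 genes were called in the F test among the 3 groups, where 44.4% of the 13712 genes tested were called. In bulk tissue, fewer cells of a type and less RNA per cell cannot be told apart.

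**Figure D1:**
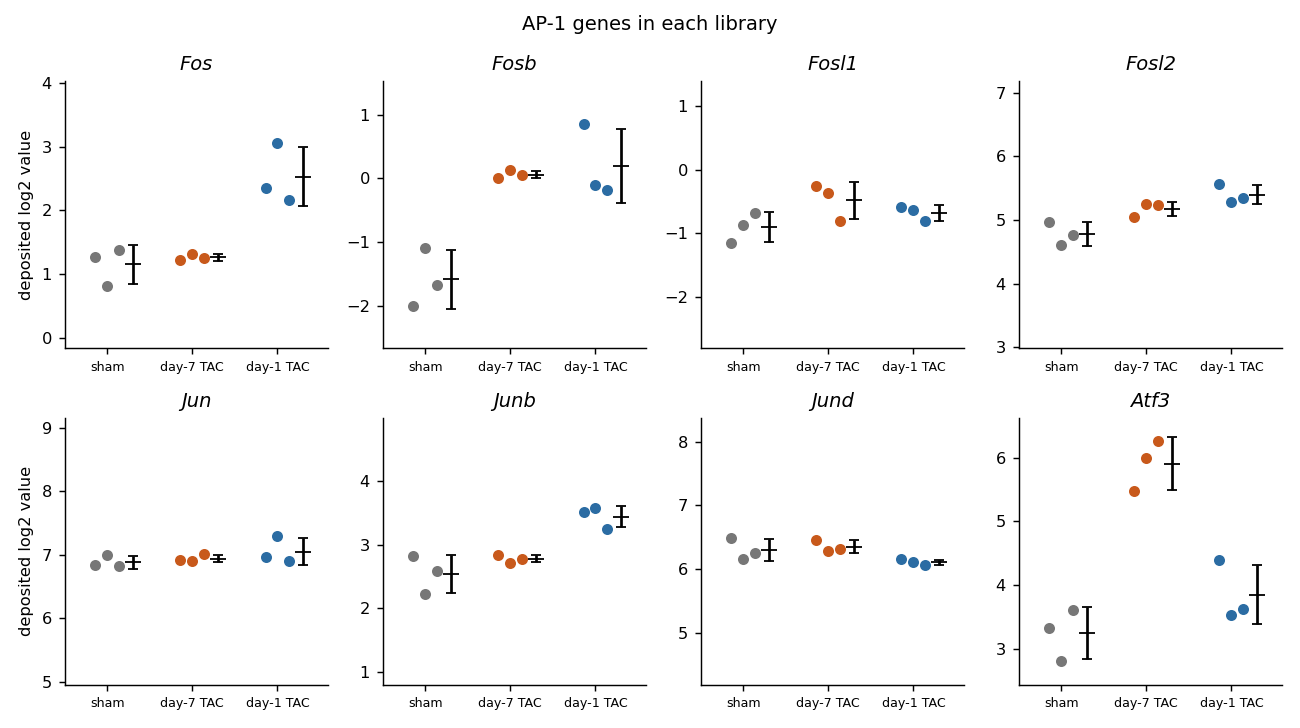
Deposited log2 value of each AP-1 gene in every library (vertical axis, the same span of log2 units in each panel), with points for the 3 libraries of each group and a bar for the mean ± SD. Fos and Junb are highest in the 3 day-1 TAC libraries, Atf3 in the 3 day-7 TAC libraries, and Fosb is lowest in the 3 sham libraries.

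Fos, the prototype immediate-early gene, rose with day-1 TAC and was near sham with day-7 TAC. The gene lies on chromosome 12 from 85473890 to 85477273 (GENCODE M21, GRCm38, plus strand). Its log2 values were 1.26, 0.81 and 1.38 in sham and 1.22, 1.32 and 1.25 with day-7 TAC. The day-1 TAC libraries stood at 2.36, 3.06 and 2.17. Every day-1 TAC library lay above all 6 others, and the sham and day-7 TAC libraries overlapped. These values rest on 45 to 50 reads per sham library, 48 to 56 for day-7 TAC and 87 to 169 for day-1 TAC. Fos was 2.6-fold higher with day-1 TAC than in sham (log2 fold change 1.38, SE 0.24, adjusted p = 0.0022). It was 2.4-fold higher than with day-7 TAC (1.27, SE 0.24, adjusted p = 0.00839). Day-7 TAC differed from sham by 0.11 (SE 0.24, adjusted p = 0.76).

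Fosb, whose truncated form is known to persist after repeated stimuli, rose in both TAC groups from a very low level. It lies on chromosome 7 from 19302696 to 19310051. Recovered reads numbered 5, 12 and 6 in sham, rising to 24, 21 and 22 (day-7 TAC) or 38, 19 and 17 (day-1 TAC). No sham library reached the lowest TAC library on the log2 scale (-1.09 against -0.18), and the TAC groups overlapped. The log2 fold change was 1.78 with day-1 TAC (SE 0.38, adjusted p = 0.00541) and 1.66 with day-7 TAC (SE 0.38, adjusted p = 0.00932). With a pseudocount of 1 these became 0.70 and 0.61. Between the TAC groups it was 0.13 (SE 0.38, adjusted p = 0.848).

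Fosl2, which encodes Fra-2 and was the most abundant Fos family transcript per kilobase, rose modestly in both TAC groups. It lies on chromosome 5 from 32135801 to 32157842. Its log2 values were 4.97, 4.60 and 4.77 in sham, then 5.05, 5.25 and 5.23 for day-7 TAC and 5.57, 5.29 and 5.34 for day-1 TAC. The 3 groups stood in that order without overlap. Fosl2 was 1.54-fold higher with day-1 TAC (0.62, SE 0.11, adjusted p = 0.00254) and 1.32-fold higher with day-7 TAC (0.40, SE 0.11, adjusted p = 0.0249) than in sham. The day-7 call was lost without sham replicate 2 (0.31, adjusted p = 0.0939), sham replicate 3 (0.39, 0.0557), or without replicate 2 (0.36, 0.0872) or 3 (0.37, 0.0762) of day-7 TAC. The TAC groups differed by 0.22 (SE 0.11, adjusted p = 0.196).

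Fosl1, which encodes Fra-1, was read 9 to 14 times per sham library, 12 to 20 times after day-7 TAC and 11 to 14 times after day-1 TAC. It lies on chromosome 19 from 5447547 to 5455946 and overlaps Ccdc85b on the opposite strand. All 9 libraries lay below 0, so it was not tested, and the 3 groups overlapped. With no filter its differences from sham were 0.22 and 0.42, with adjusted p = 0.612 and 0.325 by limma for day-1 and day-7 TAC.

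Junb, a Jun family member that is itself an immediate-early gene, had the pattern of Fos. It lies on chromosome 8 from 84974484 to 84978718, where its 3′ end overlaps Prdx2 on the opposite strand. Sham libraries stood at 2.82, 2.22 and 2.58 on the log2 scale, day-7 TAC libraries at 2.84, 2.71 and 2.78, and day-1 TAC libraries at 3.51, 3.57 and 3.25. All 3 day-1 TAC libraries lay above the other 6. Junb was 1.87-fold higher with day-1 TAC than in sham (0.90, SE 0.16, adjusted p = 0.00229), and day-7 TAC differed from sham by 0.24 (SE 0.16, adjusted p = 0.292). Day-1 TAC exceeded day-7 TAC by 0.67 (SE 0.16, adjusted p = 0.0207). That last call was lost without day-7 TAC replicate 2 (0.63, adjusted p = 0.0656) or replicate 3 (0.67, 0.0595), or without day-1 TAC replicate 1 (0.63, 0.0533) or replicate 2 (0.60, 0.0655).

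Jun, a Jun family partner of Fos proteins, and Jund, known for its steady expression in many tissues, were abundant and did not pass the test. Both are genes of 1 exon, Jun on chromosome 4 from 95049034 to 95052222 and Jund on chromosome 8 from 70698949 to 70700616. Jun was between 6.82 and 6.99 in sham, between 6.90 and 7.01 after day-7 TAC and between 6.90 and 7.29 after day-1 TAC, with overlapping groups. Its differences from sham were 0.17 with day-1 TAC (SE 0.10, adjusted p = 0.211) and 0.06 with day-7 TAC (SE 0.10, adjusted p = 0.713). Jund stood at 6.07 to 6.16 with day-1 TAC, below every library of day-7 TAC (6.28 to 6.46) and, by less than the second decimal shows, of sham (6.16 to 6.49). Its differences were -0.19 from sham (SE 0.09, adjusted p = 0.127) and -0.24 from day-7 TAC (SE 0.09, adjusted p = 0.0993, and 0.0453 without sham replicate 1). An antisense gene overlaps each of them, Junos and Gm11175, and the strand setting of the counting is not given in the sources used here.

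Atf3, a stress-induced member of the ATF branch and often a repressor of transcription, rose with day-7 TAC. It lies on chromosome 1 from 191170296 to 191218039, and the small RNA gene Gm24748 lies within it on the opposite strand. Sham values were 3.32, 2.80 and 3.61 on the log2 scale, day-7 TAC values 5.47, 6.0 and 6.26, and day-1 TAC values 4.39, 3.52 and 3.63. The 3 day-7 TAC libraries stood above all others, at 1062 to 1620 reads against 178 to 439. Day-1 TAC overlapped sham: replicate 1 stood above the sham range, and the other libraries lay near its upper end. Atf3 was 6.36-fold higher with day-7 TAC than in sham (2.67, SE 0.28, adjusted p = 0.000208), and 4.18-fold lower after day-1 TAC than after day-7 TAC (-2.07, SE 0.28, adjusted p = 0.00196). Day-1 TAC differed from sham by 0.60 (SE 0.28, adjusted p = 0.114), and by 0.34 without day-1 TAC replicate 1.

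**Figure D2:**
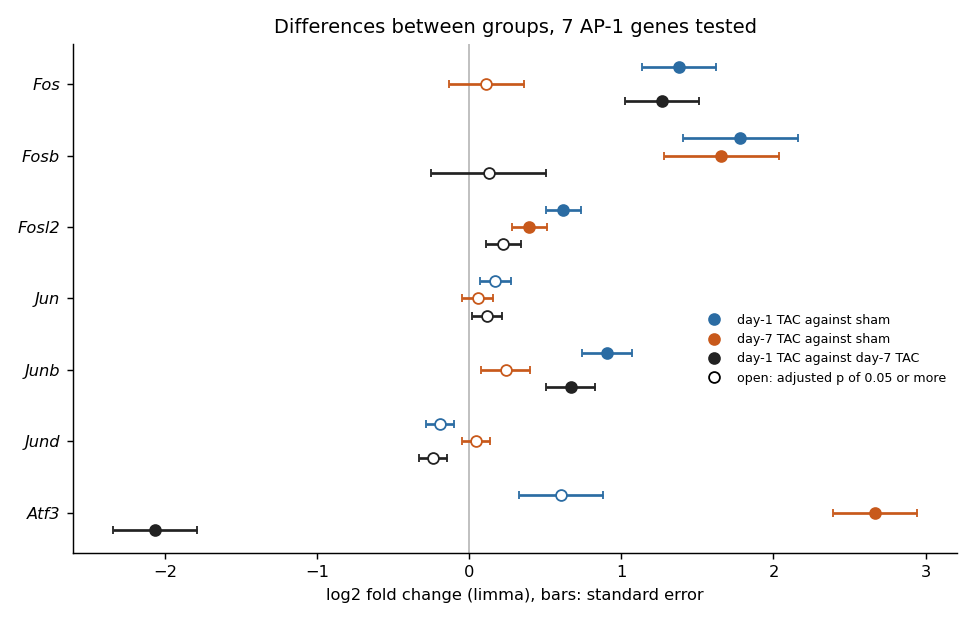
Log2 fold changes from limma (horizontal axis) with standard errors for the 7 AP-1 genes tested, in 3 comparisons by colour; filled points had an adjusted p under 0.05. Atf3 stands at 2.67 for day-7 TAC against sham and at -2.07 between the TAC groups, where Fos stands at 1.27.

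Counted together, 4 of the 8 genes were higher and none lower with day-1 TAC against sham (Fos, Fosb, Fosl2 and Junb), where 34.8% of all genes tested were called, 14.3% higher and 20.5% lower. With day-7 TAC against sham 3 were higher (Fosb, Fosl2 and Atf3), where 28.9% of the genes tested were called, 13.8% higher and 15.1% lower. Of the members, 2 were higher with day-1 than day-7 TAC (Fos and Junb) and 1 was lower (Atf3), where 16.7% of genes were called, 6.42% higher and 10.3% lower. Groups did not overlap for Fos, Fosb, Fosl2 and Junb (higher) and Jund (lower) with day-1 TAC against sham, beside 20.3% of all genes in the first direction and 27.7% in the second. They did not overlap for Fosb, Fosl2 and Atf3 with day-7 TAC against sham, beside 46.7% of all genes in either direction. For 5 members the TAC groups did not overlap, Fos, Fosl2, Junb, Jund and Atf3, beside 38.9% of all genes. Both comparisons with sham use the same sham libraries. Leaving out any 1 library kept the calls of Fos and Atf3 in each comparison in which they were called.

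Divided by the length of all annotated exons, the linear levels fell into separate tiers. In sham, Jund (47.6 ± 5.81 per kilobase, SD, n = 3) and Jun (37.1 ± 2.54) led, followed by Atf3 (4.51 ± 1.23), Fosl2 (2.85 ± 0.37) and Junb (2.56 ± 0.52). Fos (0.957 ± 0.187), Fosl1 (0.266 ± 0.043) and Fosb (0.055 ± 0.018) were lower. Fosl2 and Junb did not differ beyond their spread, nor did Jun and Jund with day-1 TAC (42.0 ± 6.26 and 41.5 ± 1.25). With day-7 TAC Jund (48.9 ± 3.34) and Jun (38.5 ± 1.64) again led, and Atf3 came next at 28.7 ± 7.62, above Fosl2 (3.74 ± 0.28) and Junb (2.98 ± 0.13). With day-1 TAC Atf3 stood at 6.93 ± 2.41, and Junb (4.75 ± 0.55), Fosl2 (4.37 ± 0.46) and Fos (2.55 ± 0.87) followed; Junb and Fosl2 did not differ beyond their spread. With the longest transcript as length the order in sham and day-7 TAC was the same, and with day-1 TAC Fosl2 and Junb changed places.

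Of the Fos family's summed level per kilobase, Fosl2 made up 65.8% to 71.6% in sham, 68.6% to 72.7% after day-7 TAC and 50.2% to 64.2% after day-1 TAC. Fos itself made up 20.8% to 25.8%, 18.9% to 20.0% and 28.4% to 44.0% in the same order, so its share was higher in each day-1 TAC library than in any other. Within the Jun family, Junb made up 2.38% to 3.29% in sham, 3.28% to 3.31% after day-7 TAC and 5.03% to 5.69% after day-1 TAC. These shares follow from the gene values above and were not tested separately.

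**Figure D3:**
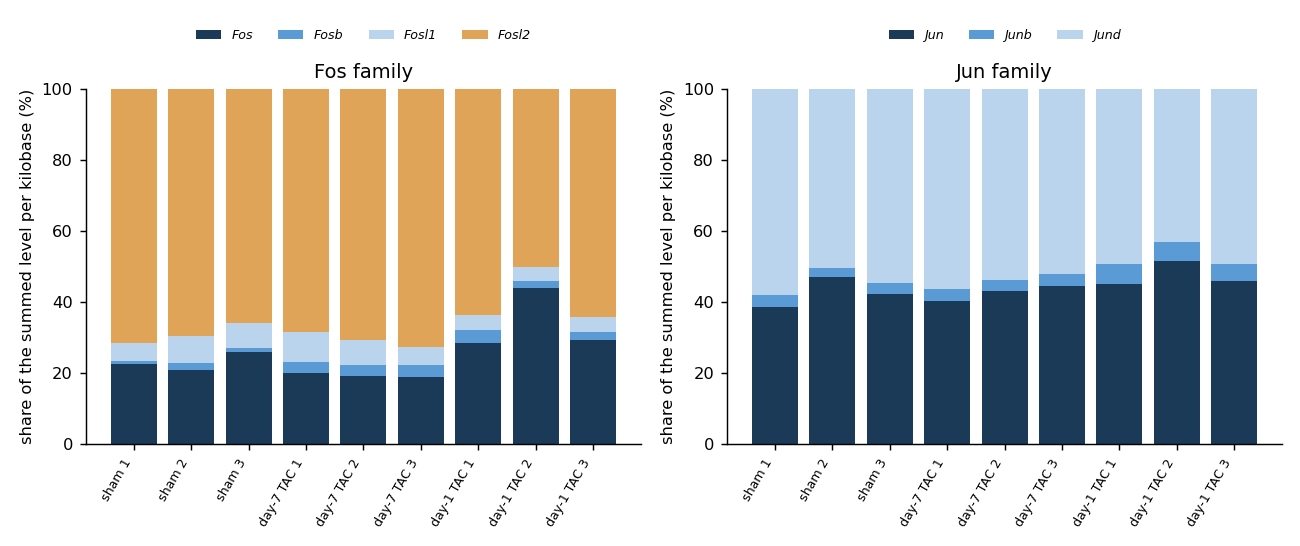
Share of each gene in its family's summed linear level per kilobase of exon (vertical axis, percent), as stacked bars for each of the 9 libraries, Fos family on the left and Jun family on the right. The Fos share is 28.4% to 44.0% in the day-1 TAC libraries and at most 25.8% elsewhere.

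Other immediate-early genes form a list that, like the lists below, was chosen with earlier results of these data known. With day-1 TAC against sham 15 of the 38 tested were called as higher and 4 as lower. Their median log2 fold change was 0.12, against -0.04 over all genes tested. With day-7 TAC 9 were higher and 5 lower (median 0.18, against -0.01). Day-1 against day-7 TAC gave 6 higher and 5 lower (median 0.05, against -0.03). In these 3 comparisons 34.8%, 28.9% and 16.7% of all genes tested were called. Leaving out 1 library gave 15 to 20, 11 to 17 and 6 to 14 calls in these comparisons, the 6 without day-7 TAC replicate 3.

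Several genes of this list were, like Fos and Junb, higher with day-1 than day-7 TAC. Egr1, a zinc finger transcription factor, rose by 1.94 with day-1 TAC against sham (SE 0.33, adjusted p = 0.0018) and stood at 0.19 with day-7 TAC (SE 0.33, adjusted p = 0.696). Sham libraries read 4.05, 4.46 and 4.71 on the log2 scale, day-7 TAC libraries 4.95, 4.44 and 4.41, and day-1 TAC libraries 6.19, 7.21 and 5.66. Day-1 TAC replicate 2 was the highest library for Egr1, Fos and Junb. Ier2 rose by 0.81 with day-1 TAC against sham and was 0.81 higher than with day-7 TAC (adjusted p = 0.00126 and 0.00399). Egr2, from 7 to 19 reads in sham, rose by 3.94 with day-1 TAC and, unlike Fos, was also called with day-7 TAC, at 1.73 (adjusted p = 0.000176 and 0.0101; 0.0632 for the latter by limma-voom). It was 2.21 higher with day-1 TAC (adjusted p = 0.00676). Egr2 lay below 0 in every sham library (-1.52, -0.43 and -0.09). Like Fosb it passed the filter through the TAC libraries alone, so its calls against sham were favoured by the filter.

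Others were, like Atf3, higher with day-7 TAC, and both named here also rose with day-1 TAC. Nr4a3, an orphan nuclear receptor, had log2 values of 5.88, 5.50 and 5.15 after day-7 TAC, 3.54, 2.15 and 3.03 after day-1 TAC and 1.35, 1.18 and 1.46 in sham. It rose by 4.18 in the former and by 1.58 in the latter, and day-1 minus day-7 TAC was -2.6 (SE 0.30, adjusted p = 0.00101). Gadd45g, a growth arrest gene, rose by 1.52 after day-7 TAC and 0.63 after day-1 TAC (adjusted p = 0.000153 and 0.00791), and day-1 minus day-7 TAC was -0.89 (adjusted p = 0.00417). Nr4a1 and the kinase gene Sik1 rose in both TAC groups, Nr4a1 by 1.23 with day-1 and 0.89 with day-7 TAC and Sik1 by 0.89 and 0.62.

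**Figure D4:**
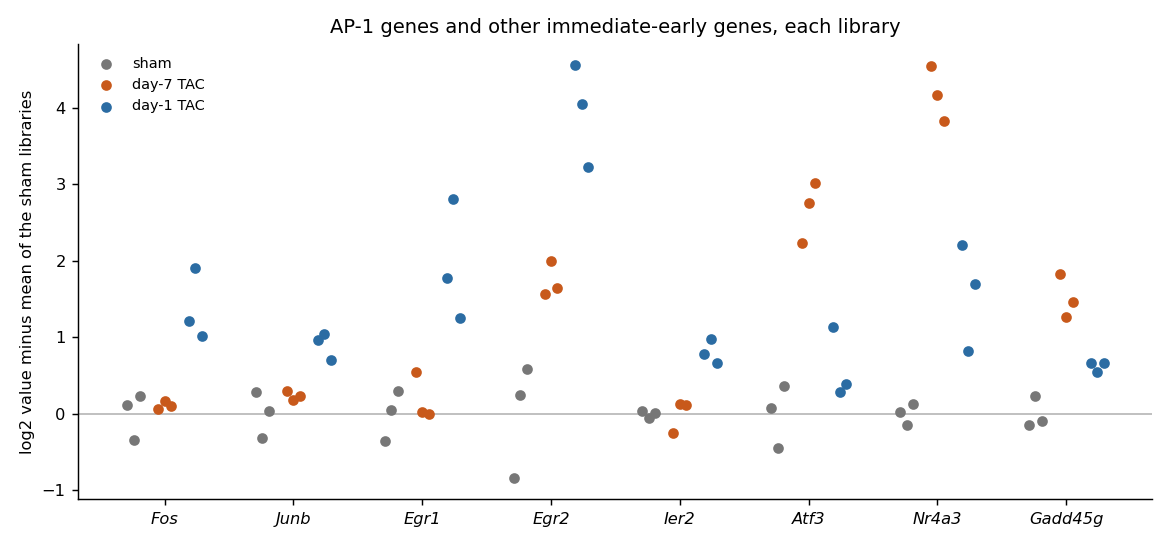
Log2 value minus the mean of the sham libraries (vertical axis) for 3 AP-1 genes and 5 other immediate-early genes, a point per library, grouped by colour. In Fos, Junb, Egr1, Egr2 and Ier2 the day-1 TAC libraries are highest (Fos 1.02 to 1.90), and in Atf3, Nr4a3 and Gadd45g the day-7 TAC libraries (Atf3 2.23 to 3.02).

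Among other AP-1 family and dimer partners, 20 of 21 were tested. With day-1 TAC 1 was higher and 2 were lower than sham (median -0.12), with day-7 TAC 3 and 2 (median -0.08), and between the TAC groups 2 and 4 (median 0.06). Beside these counts, 34.8%, 28.9% and 16.7% of all genes tested were called. Creb5, a CREB family member, rose by 1.02 with day-7 TAC (SE 0.14, adjusted p = 0.000901) and stood at -0.14 with day-1 TAC (adjusted p = 0.464), and day-1 minus day-7 TAC was -1.16 (SE 0.14, adjusted p = 0.00128). Atf4, the effector of the integrated stress response, rose by 0.65 with day-7 TAC (SE 0.09, adjusted p = 0.000987) and by 0.33 with day-1 TAC (adjusted p = 0.0195). The day-1 call of Atf4 was lost without sham replicate 2 (0.26, adjusted p = 0.0797) or day-1 TAC replicate 1 (0.30, 0.0577) or 3 (0.31, 0.059). Ddit3 (CHOP), another gene of that response, rose by 0.53 with day-7 TAC and Maf fell by 0.62 (adjusted p = 0.00949 and 0.00443), while Maf stood at -0.13 with day-1 TAC (adjusted p = 0.428). Atf2, a partner of Jun, fell by 0.39 with day-1 TAC (adjusted p = 0.00391) and stood at -0.12 with day-7 TAC (adjusted p = 0.284). Calls of the list fell to 1 without sham replicate 2 or without day-1 TAC replicate 1 or 3 (day-1 TAC against sham). Between the TAC groups they fell to 2 or 3 without sham replicate 3, any day-7 TAC library or day-1 TAC replicate 1 or 2. The AP-1 repressors Batf and Jdp2 did not pass the test in the main fit. Batf, at 14 to 37 reads per library, stood at 0.84 with day-1 TAC (adjusted p = 0.0501) and 0.58 with day-7 TAC. Jdp2 stood at -0.19 and -0.37. With day-1 TAC the adjusted p of Batf was 0.0235 to 0.209 over 18 alternatives, and 8 of them called it. These were the 3 other scalings, no filter, no intensity trend, limma-voom, and the fits without sham replicate 1 or day-7 TAC replicate 1.

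Of the MAP kinase genes that act upstream of AP-1, 24 were tested. With day-1 TAC 3 were higher and 5 lower than sham (median -0.11), with day-7 TAC 3 and 1 (median -0.01), and between the TAC groups none and 4 (median -0.12). The shares called over all genes tested were 34.8%, 28.9% and 16.7% in the same order. The stress kinase gene Map3k5 (ASK1) fell by 0.77 with day-1 and 0.75 with day-7 TAC (adjusted p = 0.00555 and 0.00739). With day-1 TAC the JNK kinase gene Map2k7 fell by 0.39 (adjusted p = 0.0017), and with day-7 TAC it stood at -0.16 (adjusted p = 0.0916). The p38 gene Mapk12 rose by 0.44 with day-7 TAC (adjusted p = 0.00566). With day-1 TAC it rose by 0.26 (adjusted p = 0.0467), a call that was lost without any 1 of 8 libraries, all but day-1 TAC replicate 1 (adjusted p = 0.0535 to 0.146). Calls of the list fell from 8 to 4 without sham replicate 2 and to 5 without day-1 TAC replicate 1 (day-1 TAC against sham), and to 2 without any day-7 TAC library (day-7 TAC against sham). Between the TAC groups they fell to between 0 and 2 without sham replicate 2, any day-7 TAC library or day-1 TAC replicate 1 or 3. The JNK gene Mapk8 rose by 0.24 with day-7 TAC (adjusted p = 0.0297), a call that was lost without any 1 of the 3 sham or the 3 day-7 TAC libraries (0.21 to 0.25, adjusted p = 0.0557 to 0.0991). Mapk9 stood at -0.11 and -0.18 with day-1 and day-7 TAC and the JNK kinase gene Map2k4 at -0.12 with day-1 TAC; none of these passed the test.

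A list of serum response factor, its cofactors, Mef2 genes and Stat3 had 11 genes tested. With day-1 TAC against sham 1 was higher and 4 lower (median -0.04). With day-7 TAC 1 was higher and 2 lower (median -0.05), and between the TAC groups 1 and 2 (median -0.07). Over all genes tested 34.8%, 28.9% and 16.7% were called. The higher call was Stat3 in both comparisons with sham, and the lower calls with day-7 TAC were Mef2 genes. The day-1 call of Stat3 was lost without sham replicate 1 or 2 or day-1 TAC replicate 1 or 2 (adjusted p = 0.0549 to 0.125). Both Stat3 calls were lost with a fold of at least 1.2 (0.526 and 0.168). Mef2a, a muscle transcription factor, fell by 0.58 with day-1 TAC (adjusted p = 0.000759) and by 0.26 with day-7 TAC (adjusted p = 0.04). The day-7 call was lost without any sham library or without day-7 TAC replicate 1 or 3 (adjusted p = 0.054 to 0.133), and under upper-quartile scaling (0.052). For Srf day-1 minus day-7 TAC was -0.49 (SE 0.14, adjusted p = 0.0415). Its call was lost under 3 other scalings (adjusted p = 0.0509 to 0.0616) and without sham replicate 3 (adjusted p = 0.0534), day-7 TAC replicate 1 (0.136) or 2 (0.103), or day-1 TAC replicate 1 (0.0856), 2 (0.0851) or 3 (0.09). Calls of the list fell to 1 without sham replicate 2 and to 3 without day-1 TAC replicate 1 (day-1 TAC against sham), and to 0 or 1 without day-7 TAC replicate 2 or 3 or any day-1 TAC library (between the TAC groups).

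Known AP-1 target genes were called as higher in 10 of 23 tested with day-1 TAC against sham (median 0.52) and in 6 with day-7 TAC (median 0.48), with none lower; between the TAC groups 4 were higher with day-1 TAC and none lower (median 0.17). Over all genes tested, 14.3%, 13.8% and 6.42% were higher in these comparisons. Of the 30 target genes in the table, 7 did not pass the filter on low values. Spp1 was among the genes called as higher in both comparisons with sham, from a sham mean of -2.45. Like Fosb it passed the filter through the TAC libraries alone, so its calls against sham were favoured by the filter. Timp1, a metalloproteinase inhibitor, rose by 2.08 with day-1 and 1.41 with day-7 TAC, Thbs1 (thrombospondin-1) by 1.86 and 1.23, Hbegf, a ligand of the EGF receptor, by 1.39 and 1.70, and the membrane metalloproteinase gene Mmp14 by 0.71 and 0.71. Adjusted p for these was at most 0.00909, for Thbs1 with day-7 TAC. The cyclin gene Ccnd1 rose by 1.22 with day-1 TAC (adjusted p = 0.00902) and stood at 0.79 with day-7 TAC (adjusted p = 0.0639, and 0.0262 without sham replicate 3 or 0.0385 without day-1 TAC replicate 1). Tnc (tenascin-C), a matrix protein of remodelling tissue, rose by 1.83 with day-1 TAC (adjusted p = 0.00282) and stood at 0.90 with day-7 TAC (adjusted p = 0.0712, and 0.00373 or 0.0367 without day-1 TAC replicate 1 or 2). The calls between the TAC groups fell to 1 or 2 without day-7 TAC replicate 1 or 3 or day-1 TAC replicate 1 or 3. Whether AP-1 acts on these genes here was not tested.

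Promoter motifs were counted over the 10368 tested genes that have a RefSeq window, as a description. TGAGTCA was held by 5.2% of all windows and by 474 of these genes, of which 15.8% were higher and 22.6% lower with day-1 TAC against sham, beside 14.3% and 20.6% of all 10368. With day-7 TAC the shares were 15.2% and 16.7%, beside 13.9% and 15.0%. TGACGTCA was held by 1.79% of windows and 364 genes, of which 19.8% were higher and 18.7% lower with day-1 TAC and 15.1% and 11.3% with day-7 TAC. A CArG box (CC, 6 letters A or T, GG) was held by 1.63% of windows and 169 genes, of which 19.5% were higher and 20.7% lower with day-1 TAC and 20.1% and 13.6% with day-7 TAC.

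Pearson's r of the log2 values over the 9 libraries gave the genes most like each member, which come from 3 groups of 3 and are not 9 independent points. For Fos these were Casq1 (0.978), Msrb1 (0.968) and Uqcc2 (0.963), and for Junb Cyb5a (0.977), Casq1 (0.975) and Mpnd (0.974). For Atf3 they were Slmap (0.986), Ahi1 (0.978) and Igf2bp3 (0.977). For Fosb they were Slitrk4 (0.994), Akirin1 (0.979) and Wdr1 (0.978), and for Fosl2 Grin2d (0.977), Bola2 (0.977) and Zmat2 (0.976). Jun was closest to Tcf3 (0.977), Sall4 (0.877) and Rnaset2b (0.865), and Jund to Ik (0.945), Tdp2 (0.927) and Eif3a (0.926).

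Markers of other cells moved with these groups. Between the TAC groups 7 of 10 macrophage markers were higher with day-1 TAC, as Fos and Junb were, beside 6.42% of all genes tested. The summed linear level of the macrophage markers was 193.1 to 271.9 after day-1 TAC, 130.3 to 167.0 after day-7 TAC and 169.6 to 227.8 in sham. Neutrophil markers were higher in 8 of 8 tested with day-7 TAC against sham and in 5 with day-1 TAC. Of all genes tested 13.8% and 14.3% were higher. S100a8, Ngp, Ltf, Retnlg, Mmp8 and Cxcr2 had at most 14 reads in any sham library. They passed the filter through the TAC libraries alone, so their calls were favoured by it. The summed level of the neutrophil markers was 32.8 to 72.7 after day-7 TAC, 7.57 to 34.1 after day-1 TAC and 2.34 to 4.44 in sham. Fibroblast markers were higher in 3 of 9 and lower in 1 with day-1 TAC against sham, and endothelial markers were lower in 4 of 9. In that comparison 14.3% of all genes tested were higher and 20.5% lower. Lymphocyte markers passed the filter in 1 of the 7 in the table, with sums of 1.61 to 4.92 over all libraries. The part of these cells in the AP-1 values was not tested.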

How the data were processed

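Messenger RNA of the left ventricle was sequenced in 9 libraries (single-end, 50 cycles, ScriptSeq v2, per the labels' protocols). The submitters' processing notes list Trim Galore, STAR, edgeR and the mm10 build, without versions; annotation and strand setting are unstated. Per the file headers, the authors' values are log2 and TMM-scaled. Of 16710 rows, 12 that share 3 symbols were left out. Within 0.001 reads, 100.0% of linear values in each library are multiples of its lowest value, which was taken as 1 read; if the authors added 1 read to every gene, the values would look alike. In the file header 2 sham columns share a name and are numbered 2 and 3 by column position only; this number is not used for pairing.

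Genes above 0 in at least 3 libraries (13712) were fitted in limma 3.58.1 (R 4.3.3) with group means of all 9 libraries and an intensity trend; tests were two-sided and p-values adjusted by Benjamini-Hochberg over all genes tested. Group values are mean ± SD, n = 3. The steps were tested on simulated data with 200 changed genes. Members and lists were chosen with earlier results of these data known. The genes named were all 8 members, up to 6 genes of each list by the F test, 10 genes given whatever their result, and the 3 genes most like each member; some list genes are not reported here. Gene models and exon lengths are from GENCODE M21 on GRCm38, promoter windows from RefSeq (GRCm38.p6). Alternatives were other scalings, filters, pseudocounts, fits and each library left out.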

Additional observations from a re-analysis of the deposited data

Results flagged for a closer look

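For 3 AP-1 genes the TAC groups differed, by limma's direct contrast between them. Age at surgery and time under load differ together between these groups and cannot be told apart. For Fos, day-1 minus day-7 TAC was 1.27 on the log2 scale, and 3 of 3 day-1 TAC libraries lay above all day-7 TAC libraries (adjusted p = 0.00839). For Junb it was 0.67, also without overlap (adjusted p = 0.0207). This Junb call was lost without day-7 TAC replicate 2 or 3 or day-1 TAC replicate 1 or 2 (adjusted p = 0.0533 to 0.0656). It was also lost when limma asked for a fold of at least 1.2 (adjusted p = 0.24). For Atf3 the difference was -2.07, with all 3 day-1 TAC libraries below the 3 day-7 TAC libraries (adjusted p = 0.00196). Groups did not overlap between the TAC groups in 38.9% of all genes tested.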

How the results depend on the processing

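Over 18 to 20 alternatives, including 3 other scalings, no filter, limma without the trend and limma-voom on the recovered reads (added after the data were seen), Fos kept log2 fold changes of 1.08 to 1.56 with day-1 TAC against sham and 1.00 to 1.45 between the TAC groups, and Atf3 kept 2.45 to 2.89 with day-7 TAC against sham, all called. Between the TAC groups Fos stood just under the limit when limma asked for a fold of at least 1.2 (adjusted p = 0.05 as rounded). With a mean of at least 2 as filter, which leaves Fos and Fosb untested, the members called number 2 (day-1 TAC against sham) and 3 (F test). When the test asked for a fold of at least 1.2, 1428 genes passed with day-1 TAC, 1066 with day-7 TAC (both against sham) and 273 between the TAC groups, in place of 4776, 3962 and 2287; Fosl2 with day-7 TAC and Junb between the TAC groups then lost their calls (adjusted p = 0.539 and 0.24), as did Map3k5 (0.0523 and 0.0709), Atf2 (0.283), Maf (0.0744), Ddit3 (0.185), Map2k7 (0.211), Sirt1 (0.205), Srf (0.553), both comparisons of Mapk12, Mapk8 and Mef2a with day-7 TAC, Atf4 and Gadd45g with day-1 TAC, and Fbxw7 with day-7 TAC (0.173). Leaving out 1 library gave 3259 to 4525, 2594 to 4404 (lowest without day-7 TAC replicate 2) and 1261 to 2491 genes called (1300 or fewer without any 1 day-7 TAC library). Directions of uncalled differences turned in 5 cases, and the cause was not tested. With day-7 TAC against sham, Fos ranged from -0.056 (without sham replicate 2) to 0.227, and Jund from -0.028 (without sham replicate 2; -0.01 without day-7 TAC replicate 1) to 0.14. Between the TAC groups Fosb ranged from -0.204 (without day-1 TAC replicate 1) to 0.315 and Jun from -0.003 (without day-1 TAC replicate 2) to 0.191. Jund passed the test between the TAC groups without sham replicate 1 (-0.24, adjusted p = 0.0453).

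The share of higher calls with day-1 TAC against sham was 41.1% as deposited and 48.5% to 57.7% under the other scalings, and between the TAC groups 38.5% and 46.1% to 54.3%; no scaling changed a member's call. TAC libraries share only a replicate number: deviations of same-numbered libraries correlated at -0.224, -0.11 and -0.036. With the replicate block 1167 genes and 3 members were called between the TAC groups. No paired analysis was possible with sham because its columns carry only 1 number of their own. The planned count tests were not run, since the deposited unit is log2. Genes with few reads, Fosb and Fosl1 among them, are limited by depth.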

Other observations

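Genes that act on AP-1 protein stability or activity were called as higher in 1 and lower in 6 of 14 tested with day-1 TAC against sham (median -0.03), in 2 and 2 with day-7 TAC (median -0.06), and in none and 4 between the TAC groups (median -0.06). Over all genes tested 34.8%, 28.9% and 16.7% were called in the same order. Fbxw7, a ubiquitin ligase subunit known to target Jun, fell by 0.81 with day-1 TAC and 0.53 with day-7 TAC (SE 0.12, adjusted p = 0.000869 and 0.00845). Its difference between the TAC groups was -0.28 (adjusted p = 0.125, and 0.028 without day-1 TAC replicate 2). Usp28, a deubiquitinase, rose by 0.54 with day-7 TAC (adjusted p = 0.000421), and day-1 minus day-7 TAC was -0.53 (adjusted p = 0.00118). Sirt1, a deacetylase known to act on Jun, fell by 0.39 with day-1 TAC (adjusted p = 0.00194). Calls of the list fell to 3 without sham replicate 2 and to 4 without day-1 TAC replicate 3 (day-1 TAC against sham), and for day-7 TAC against sham to 2 without sham replicate 2 or without replicate 2 or 3 of day-7 TAC. Of 7 pressure-load markers tested, 6 were higher with day-1 and 7 with day-7 TAC against sham, beside 14.3% and 13.8% of all genes. Nppa, the atrial natriuretic peptide gene, rose by 2.79 and 3.29, and Acta1, skeletal actin, by 5.11 and 2.74, with Acta1 also higher between the TAC groups (2.37, adjusted p = 0.00314). Myh7, the fetal myosin heavy chain, rose by 1.57 with day-7 TAC, stood at -0.45 with day-1 TAC (adjusted p = 0.139), and day-1 minus day-7 TAC was -2.01 (adjusted p = 0.000707).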
